A study of Mus musculus with 9 samples.

Results

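Adipocyte marker genes were examined in the tail skin of mice with surgically induced lymphedema. The set holds 9 genes, Adipoq, Fabp4, Fabp5, Lpl, Pparg, Cd36, Cfd, Plin1 and Lep, and its members were every array feature that the array's annotation assigns to 1 of these symbols. Of the 9 genes, 6 were represented by 20 features, and 18 of these features had a value on all 9 arrays. For Cfd, Plin1 and Lep no feature is named here, and they were not analysed. The 6 measured genes stand among 8644 named genes with a value on every array.

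White fat cells arise when the nuclear receptor PPARγ, with C/EBP factors, switches on a program of lipid uptake and storage. Lipoprotein lipase frees fatty acids from circulating triglyceride, CD36 takes them up, and the fatty acid binding proteins FABP4 and FABP5 carry them inside the cell, while adiponectin, encoded by Adipoq, is a hormone secreted almost exclusively by fat cells. Apart from Adipoq, the measured genes are also used by other cells of skin, since macrophages express Fabp4, Fabp5, Lpl, Pparg and Cd36, capillary endothelium expresses Fabp4 and Cd36, keratinocytes express Fabp5, and sebaceous gland cells express Pparg.

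The 3 states were compared, each with 3 pools of RNA from 3 mice, or 9 mice a state and 27 mice in all. All mice were female, hairless, immunocompetent SKH-1 animals studied at 3 weeks of age, and tissue was taken on day 14 after surgery. In lymphedema, the tail skin was incised around its circumference 16 mm from the base and the main lymphatic trunks were cauterized. The surgical sham mice had the incision with the trunks left in place, and normal mice had no surgery. Skin of the distal tail was separated from cartilage, and each pool was hybridized once, with RNA of whole e17.5 embryos as the common reference, to a cDNA array with 2 colors. Each value is the log2 ratio of tail skin over embryo, centered on the median of its array, so that a positive value means a higher ratio than the typical feature. The pools are the replicates (n = 3 in every state), and this number limits the precision. In whole skin, fewer fat cells and less RNA per fat cell cannot be told apart.

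By the labels tail skin was in Cy5, and by the methods it was in Cy3. The direction was therefore read from genes typical of embryos and genes typical of adult skin. Of the embryo genes, 29 to 31 an array lay above the array median in the deposited values, and 0 or 1 lay under it. Of 17 to 19 adult skin genes an array, 15 to 17 lay under the median and 1 to 4 above it. The deposited values were turned on this basis, opposite to the dyes of the labels. The log base is not stated, and base 2 was used, so folds rest on that reading. Sham array 3 stood apart from the other sham arrays (r across genes of 0.826 and 0.874, against 0.911 between sham arrays 1 and 2, 0.919 to 0.938 among lymphedema arrays and 0.932 to 0.963 among normal arrays). In addition, 186 features had values on lymphedema array 1 and the 3 normal arrays and on none of the other 5 arrays, whereas the next most frequent division of this kind had 45 features. What these sets of arrays share was not given in the sources used here. All 3 normal arrays belong to the first set and all 3 sham arrays to the other. A difference between sham and normal skin therefore cannot be told apart from a difference between the sets.

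Promoter sequences are shown for the pair of measured genes with a window that held a short motif of nuclear receptors. RefSeq windows of 300 bases around the gene start (GRCm38.p6) matched 6 of the 9 genes, with 3 windows for Pparg and 8 in all; Fabp4, Fabp5 and Lpl had no entry. The direct repeat bound by PPAR with its partner RXR, in which a pair of AGGTCA copies stand a single base apart, was in 0 of the 8 windows and in 0.0396% of 32851 mouse promoters, both strands being searched. The C/EBP motif TTGCGCAA was in 1 window, that of Lep, and in 0.183% of promoters. The TATA motif TATAAA was in 1 window, of Pparg, and in 13.6% of promoters. The single AGGTCA, which is contained in the direct repeat and was searched after the values were seen, was in 3 windows, 1 of Cd36 and 2 of Pparg, and in 16.3% of promoters. Capitals mark AGGTCA and TATAAA on either strand, each sequence running 5′ to 3′ along its gene.
Pparg, chr6:115362099-115362398, plus strand: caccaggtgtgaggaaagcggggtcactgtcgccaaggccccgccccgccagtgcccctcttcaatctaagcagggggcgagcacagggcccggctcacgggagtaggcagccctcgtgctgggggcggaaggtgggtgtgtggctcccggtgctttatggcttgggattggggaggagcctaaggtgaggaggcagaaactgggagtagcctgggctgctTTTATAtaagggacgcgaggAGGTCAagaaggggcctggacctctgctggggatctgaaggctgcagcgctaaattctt
Cd36, chr5:17835847-17836146, minus strand: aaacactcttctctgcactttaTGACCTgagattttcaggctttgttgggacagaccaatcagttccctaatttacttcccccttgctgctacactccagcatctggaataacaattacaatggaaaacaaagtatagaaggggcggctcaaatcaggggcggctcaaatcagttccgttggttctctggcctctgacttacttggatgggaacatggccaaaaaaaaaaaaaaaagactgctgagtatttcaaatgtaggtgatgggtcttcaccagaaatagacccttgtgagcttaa
Such a match is a description of the letters and does not show a bound site.

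The fatty acid binding proteins, the carriers inside the cell, showed the widest separation between lymphedema and normal skin among the 6 genes. Fabp5, the epidermal type, had log2 ratios of 1.35, 1.72 and 1.20 in lymphedema, 1.20, 1.04 and 1.17 in sham and 0.51, 0.76 and 0.53 in normal skin. All 6 operated pools lay above the 3 normal pools, and the lowest lymphedema and highest sham values both rounded to 1.20. Means were 1.42 ± 0.27 in lymphedema, 1.13 ± 0.0841 in sham and 0.60 ± 0.14 in normal skin (SD, n = 3 each). Fabp5 rose in lymphedema over normal by 0.82 on the log2 scale, or 1.77-fold (SE 0.182, 95% interval 0.42 to 1.22, limma adjusted p = 0.037), and was the only 1 of the 6 genes past the threshold of 0.05 there, where 3.44% of all genes passed (2.83% higher and 0.602% lower). Fabp5 was included with results of these arrays already known, so its direction is not independent evidence. For sham over normal the difference was 0.54 (SE 0.182, interval 0.14 to 0.94, adjusted p = 0.48) and for lymphedema over sham it was 0.29 (interval −0.11 to 0.69, adjusted p = 0.731). The lymphedema difference missed the threshold without centering (adjusted p = 0.0511), after quantile normalization (0.0525) and without any 1 of the lymphedema or normal arrays (0.0534 to 0.165), and its log2 size ran from 0.67 to 1.17 over 18 alternatives fitted with limma. Lymphedema array 1 exceeded the mean of the normal arrays by 0.75, and arrays 2 and 3 exceeded the mean of the sham arrays by 0.32. These are the comparisons within each set of arrays with shared missing values. With that set as a block the lymphedema difference was 0.75 and the limma adjusted p 0.349. Sham and normal arrays lie in different sets, and in that fit sham over normal was 0.42 (SE 0.341, limma adjusted p = 0.999).

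The rise of Fabp5 was carried unequally by its 2 features. Feature 14941 had 1.81, 2.43 and 1.86 in lymphedema, 1.49, 1.30 and 1.82 in sham and 0.75, 0.97 and 0.88 in normal skin, a difference of 1.17 for lymphedema over normal (SE 0.245, limma adjusted p = 0.0209). Feature 40399 had 0.88, 1.01 and 0.54 in lymphedema, 0.91, 0.78 and 0.52 in sham and 0.27, 0.56 and 0.17 in normal skin, a difference of 0.48 (SE 0.233, adjusted p = 0.277). The operated and normal pools did not overlap on feature 14941, whereas on feature 40399 the lowest lymphedema and sham pools lay under the highest normal pool. Across all features 2.94% passed, and of the 18 member features 1 did.

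Fabp4, the adipocyte type, followed Fabp5 in the order of the states but from a lower position. Its single feature gave −0.46, −0.27 and −1.11 in lymphedema, −0.71, −0.66 and −1.47 in sham and −1.67, −1.70 and −1.28 in normal skin. Every lymphedema pool lay above every normal pool, whereas sham array 3 lay among the normal pools. The difference of lymphedema over normal was 0.94, or 1.91-fold (SE 0.274, 95% interval 0.34 to 1.54), the largest of the 6 genes, and did not pass (limma adjusted p = 0.0864). It passed in 2 of 18 alternatives with limma, with the arrays of these states alone (adjusted p = 0.0376) and without sham array 3 (0.0347). In these fits 842 and 623 genes passed, against 297 in the main fit. Over the 18 alternatives the log2 difference ran from 0.71 to 1.18 and the limma adjusted p up to 0.356. For sham over normal Fabp4 differed by 0.61 (interval 0.01 to 1.21, adjusted p = 0.623), or by 0.87 without sham array 3 (adjusted p = 0.146), and for lymphedema over sham by 0.33 (interval −0.27 to 0.93, adjusted p = 0.809). Lymphedema array 1 exceeded the normal mean by 1.09, and lymphedema arrays 2 and 3 exceeded the sham mean by 0.25.

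**Figure D1:**
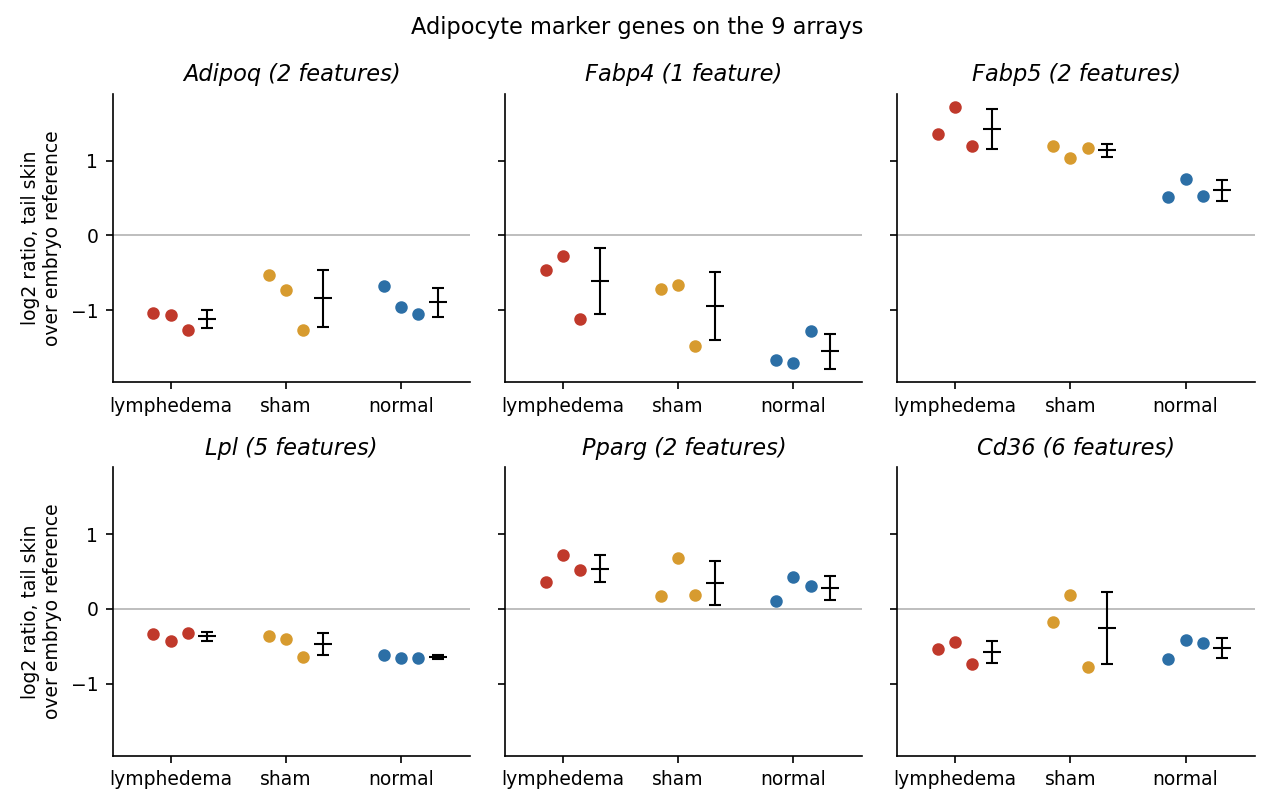
Centered log2 ratio of tail skin over embryo for each measured adipocyte marker gene, with 1 point for each pool and bars for the mean ± SD of 3 pools. Fabp5, Fabp4 and Lpl are the genes whose 3 lymphedema points all lie above the 3 normal points, and sham array 3 lies apart from the other sham points in Adipoq, Fabp4, Lpl and Cd36.

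Lpl, the secreted lipase that acts on the capillary wall, differed little between states when its 5 complete features were averaged. Its log2 ratios were −0.34, −0.43 and −0.32 in lymphedema, −0.36, −0.40 and −0.64 in sham and −0.61, −0.66 and −0.66 in normal skin, so that the lymphedema pools lay above the normal pools and the sham pools reached into both. The difference of lymphedema over normal was 0.28 (SE 0.158, 95% interval −0.07 to 0.63, limma adjusted p = 0.345), that of sham over normal 0.18 (adjusted p = 0.829) and that of lymphedema over sham 0.10 (adjusted p = 0.889).

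The average of Lpl covered features that ran in opposite directions. Feature 747 gave −0.11, 0.08 and 0.47 in lymphedema, 0.46, 0.41 and 0.71 in sham and 0.94, 1.12 and 0.65 in normal skin, with every lymphedema pool under every normal pool. Its difference of lymphedema over normal was −0.75 (SE 0.239, limma adjusted p = 0.0999). The other 4 features differed by 0.59 (feature 4352), 0.48 (feature 5410), 0.25 (feature 15726) and 0.83 (feature 35845), and 3 of them, all but 15726, had lymphedema pools wholly above the normal pools (the groups did not overlap in 31.8% of all features, in either direction). Over the 9 arrays, which share the embryo reference and their states, feature 747 correlated with the other 4 at −0.862, −0.821, −0.49 and −0.805, whereas those correlated with each other at 0.394 to 0.84. Feature 38593, with no value on normal array 1, gave 0.65, 0.30 and 0.56 in lymphedema, 1.19, 1.47 and 0.38 in sham and 0.70 and 0.77 in the remaining normal pools. Taking feature 747 alone for the gene, as the clone of lowest number, turned the sign of Lpl to −0.75. No clone sequence was used here, so which features detect Lpl RNA was not tested.

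**Figure D2:**
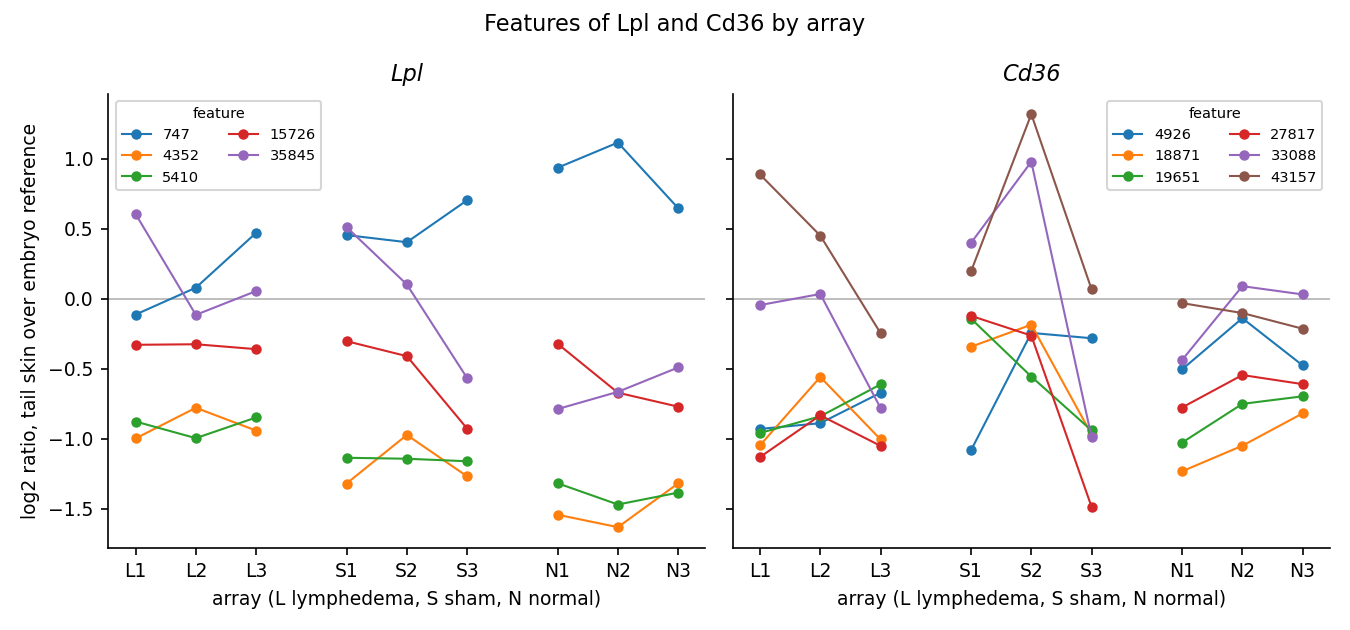
Centered log2 ratio of tail skin over embryo for each complete feature of Lpl (left) and Cd36 (right) on lymphedema, sham and normal arrays. Lines join the points of 1 feature within a state and imply no order of the pools. Feature 747 of Lpl lies lowest in lymphedema and highest in normal skin, opposite to the other 4 features of the gene.

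Cd36, the fatty acid transporter and scavenger receptor, did not differ between lymphedema and normal skin beyond its spread. Over 6 complete features its log2 ratios were −0.54, −0.44 and −0.73 in lymphedema, −0.18, 0.18 and −0.77 in sham and −0.67, −0.42 and −0.46 in normal skin. Sham arrays 1 and 2 were the highest of the 9, and sham array 3 was the lowest. The difference of lymphedema over normal was −0.05 (SE 0.23, 95% interval −0.56 to 0.45, limma adjusted p = 0.93), and that of sham over normal was 0.26 (interval −0.25 to 0.76, adjusted p = 0.829), or 0.51 without sham array 3 (adjusted p = 0.212). Against sham, lymphedema was lower by a log2 difference of −0.31 (interval −0.81 to 0.19, adjusted p = 0.774), or −0.56 without sham array 3 (adjusted p = 0.166), and neither passed.

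The features of Cd36 divided as well. For lymphedema over normal 3 were higher and 3 lower, between −0.46 (feature 4926) and 0.48 (feature 43157), while for lymphedema over sham all 6 were lower, at −0.39 to −0.16, with the groups overlapping on each. Features 4926 and 27817 come from the same source sequence and correlated at −0.0716 over the 9 arrays. On both, every lymphedema pool lay under every normal pool, with differences of −0.46 and −0.36 (limma adjusted p = 0.353 and 0.551). Such separation was seen in 31.8% of all features, in either direction. Features 18871 and 43157 share another source sequence and correlated at 0.57. Feature 4926 was the 1 that stood apart, with correlations of −0.31 to −0.0499 with the other 5. Feature 35983, with no value on sham array 3, gave 1.70, 0.56 and 1.38 in lymphedema, 1.35 and 1.33 in sham and 1.12, 1.27 and 2.45 in normal skin, and these groups overlapped.

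Pparg, the nuclear receptor that directs fat cell formation, had log2 ratios of 0.36, 0.72 and 0.52 in lymphedema, 0.17, 0.68 and 0.19 in sham and 0.11, 0.43 and 0.30 in normal skin. The 3 states overlapped. The difference of lymphedema over normal was 0.26 (SE 0.195, 95% interval −0.17 to 0.68, limma adjusted p = 0.496), that of sham over normal 0.07 (interval −0.36 to 0.50, adjusted p = 0.954) and that of lymphedema over sham 0.19 (interval −0.24 to 0.62, adjusted p = 0.847). Its 2 features share a source sequence and yet disagreed in level and in change. Feature 40458 gave 1.16, 1.52 and 1.16 in lymphedema, 0.79, 1.43 and 0.50 in sham and 0.57, 0.87 and 0.66 in normal skin, with lymphedema wholly above normal and a difference of 0.58 (SE 0.261, limma adjusted p = 0.236). Feature 4472 gave −0.44, −0.07 and −0.13 in lymphedema, −0.45, −0.08 and −0.12 in sham and −0.35, −0.01 and −0.06 in normal skin, a difference of −0.07 (SE 0.228, adjusted p = 0.896). The pair correlated at 0.193 over the 9 arrays.

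Adipoq, the member most restricted to fat cells, did not pass in any comparison. Its log2 ratios were −1.04, −1.06 and −1.26 in lymphedema, −0.53, −0.73 and −1.26 in sham and −0.68, −0.95 and −1.05 in normal skin. The lymphedema pools lay at the low end, although the highest of them was level with the lowest normal pool and sham array 3 was as low as any. The difference of lymphedema over normal was −0.22 (SE 0.21, 95% interval −0.68 to 0.24, limma adjusted p = 0.586), that of sham over normal 0.05 (interval −0.41 to 0.52, adjusted p = 0.966) and that of lymphedema over sham −0.28 (interval −0.74 to 0.18, adjusted p = 0.778). Without sham array 3 these last values were 0.26 (adjusted p = 0.457) and −0.49 (adjusted p = 0.209). Both features of Adipoq were lower in lymphedema than in normal skin, by log2 differences of −0.17 (feature 16999) and −0.28 (feature 26607), and they correlated at 0.757. On feature 26607 every lymphedema pool lay under every normal pool (limma adjusted p = 0.585), and on feature 16999 the pools overlapped (adjusted p = 0.738). Groups did not overlap in 31.8% of all features, in either direction.

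**Figure D3:**
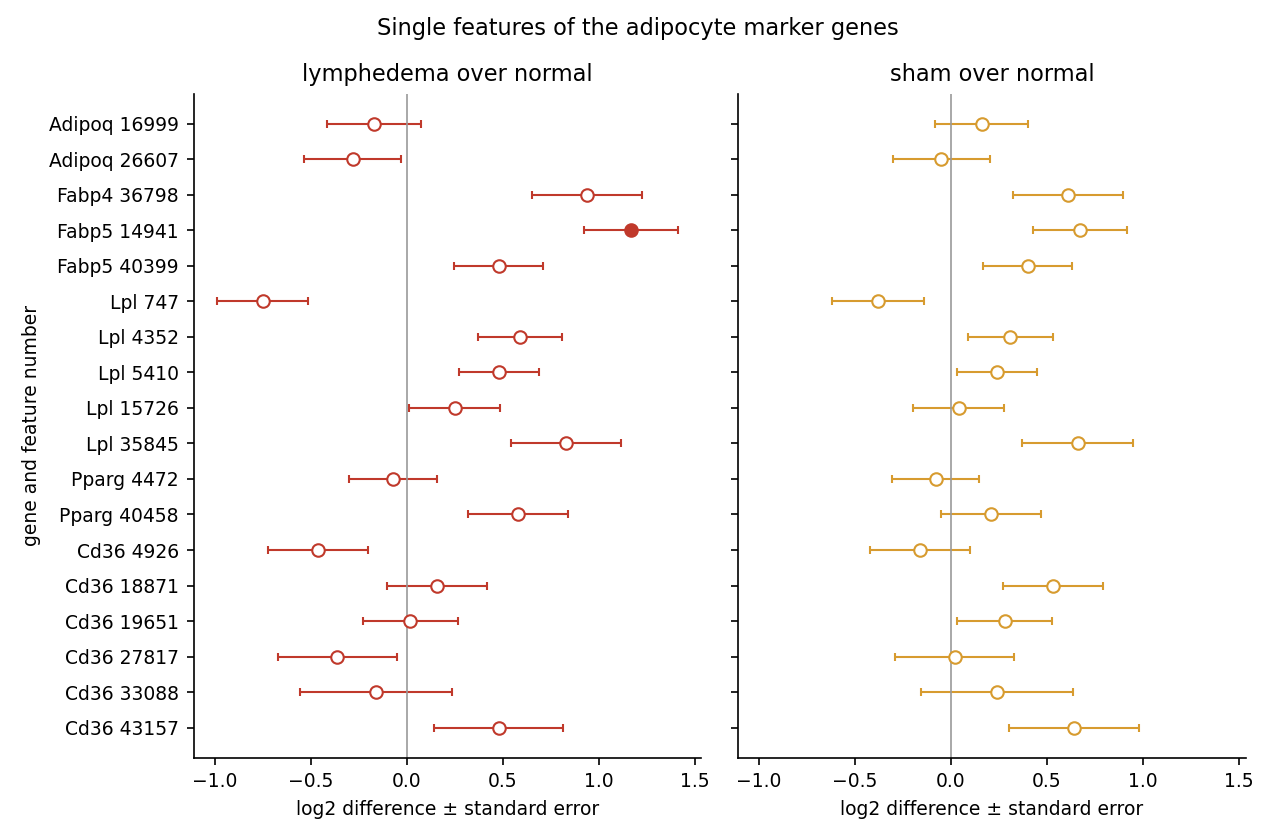
Log2 difference ± standard error of each complete member feature for lymphedema over normal (left) and sham over normal (right), from limma across all features. The filled point is the feature past the adjusted threshold, feature 14941 of Fabp5 at 1.17, and feature 747 of Lpl at −0.75 is the lowest.

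As a set, the 6 genes had a median log2 difference of 0.27 for lymphedema over normal, against 0.10 over all genes. Of the 6, 4 were higher and 2 lower, and 3 (Fabp4, Fabp5 and Lpl) had lymphedema pools wholly above the normal pools, where 23.6% of all genes did (33.8% in either direction). SAM called those same 3 members, and it called 21.2% of all genes. For Lpl, the separation and the SAM call rest on an average of features that ran in opposite directions. For sham over normal all 6 differences were above 0, with a median of 0.22 against 0.06 over all genes; 0 members passed, as did 0% of all genes in limma, where 685 genes (7.92%) and 2 members (Fabp4 and Fabp5) had an unadjusted p under 0.05. SAM called 20 genes (0.231%) and 0 members there. Only Fabp5 separated sham from normal pools, a separation seen in 12.8% of all genes. For lymphedema over sham the median was 0.15 against 0.06 over all genes, 4 members being higher and 2 lower. There 0 members passed, beside 2 genes or 0.0231% of all genes, and 643 genes (7.44%) and 0 members had an unadjusted p under 0.05; SAM called 0 genes. Pools did not overlap in 10.3% of all genes in that comparison, among them Fabp5. Sham and normal arrays lie in different sets of arrays with shared missing values, so their difference cannot be told apart from that of the sets. The comparisons of lymphedema and of sham with normal skin share the normal pools. The difference between them is the comparison of lymphedema with sham.

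The position of each gene was then read against the embryo. Such a ratio depends on the RNA of the embryo as well as on that of tail skin. Adipoq, Fabp4 and Lpl lay under the array median on all 9 arrays, Fabp5 and Pparg lay above it on all 9, and Cd36 lay above it on 1. Among all genes, ranked by their ratio, Fabp5 stood at percentile 95.2 in lymphedema, 92.2 in sham and 81.5 in normal skin, and Fabp4 stood at percentile 19 in lymphedema, 13.5 in sham and 6.42 in normal skin. Adipoq stood at percentile 8.02 in lymphedema, 16.1 in sham and 16.8 in normal skin. Thus the label of fat cell markers rests, in these arrays, on 1 gene largely confined to fat cells, which had a low ratio to the embryo in every state, and on 5 that other skin cells also use.

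Patterns over the 9 arrays divided the members otherwise. Fabp4 correlated with Fabp5 at 0.791 and with Lpl at 0.785, and Fabp5 with Lpl at 0.673, whereas Adipoq correlated with Cd36 at 0.641 and with Fabp5 at −0.267. These values describe 9 arrays that share states and a reference. Of 8643 other genes, the closest to Fabp5 were Selenop (r = 0.982), Col27a1 (0.971) and Ppp1r21 (0.968), and the closest to Fabp4 were Rabggtb (0.978), Rpl34 (0.97) and Pcna (0.967). Those closest to Lpl were Igsf3 (0.968), Qars (0.959) and Clk4 (0.944), and those closest to Adipoq were Zfand2a (0.961), Desi1 (0.955) and Tmem239 (0.95). None of these 12 is itself a member.

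Genes that work with the members were then read for lymphedema over normal, list by list, each against the median of 0.10 over all genes. In the counts of the lists, a gene rose or fell only if it passed the limma threshold. Of all genes, 2.83% passed as higher and 0.602% as lower. Among carriers and receptors of fatty acids, 15 of 23 were measured, with 8 differences above 0 and 7 below (median 0.16). Past the threshold 2 rose and 0 fell. These were Gpihbp1, which anchors lipoprotein lipase to capillary endothelium, at 1.12 (SE 0.221, limma adjusted p = 0.0275), and Ppard, a fatty acid sensing nuclear receptor of the PPAR family, at 0.97 (SE 0.201, adjusted p = 0.0291). Among other secreted products of fat, 9 of 16 were measured, all 9 differences were above 0 (median 0.41), and 1 passed. This was Rarres2, which encodes the chemoattractant chemerin, at 1.77 (SE 0.319, adjusted p = 0.0236). Differences were also above 0 for 11 of 11 fibroblast, 14 of 15 macrophage, 8 of 9 blood endothelium and 7 of 9 skeletal muscle markers. They were above 0 for 7 of 10 keratinocyte, 5 of 6 wound-activated keratinocyte and 1 of 4 sebaceous gland markers. Among enzymes of triglyceride and fatty acid synthesis, 10 of 19 were measured and 2 fell (median −0.59), the elongase Elovl6 at −0.98 (adjusted p = 0.0488) and Dgat2, which completes triglyceride, at −0.88 (adjusted p = 0.0339). Of 18 alternatives with limma, Rarres2 and Dgat2 passed in 11, Gpihbp1 and Ppard in 10 and Elovl6 in 6.

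In the other lists of the fat cell program 0 genes passed in either direction. Of 23 regulators of adipogenesis 16 were measured (median −0.08), with the early factors Egr2 at −0.68 and Klf4 at −0.66. Of 16 preadipocyte genes and inhibitors 14 were measured (median 0.14), with Ddit3, an inhibitor of C/EBP factors, at 0.83 and Foxc2 at 0.75. Of 22 genes of the lipid droplet and lipolysis 16 were measured (median 0.13), with Cideb at −0.88 and Cavin1 at 0.62. Of 10 genes of insulin action and glucose uptake 5 were measured (median 0.03), with the glucose transporters Slc2a1 at −0.48 and Slc2a4 at 0.42, and of 10 thermogenic genes 3 were measured (median 0.15), with Cidea at 0.56 and Cox8b at 0.15. For sham over normal 0 genes of any of these lists passed in limma, and the same held for lymphedema over sham.

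**Figure D4:**
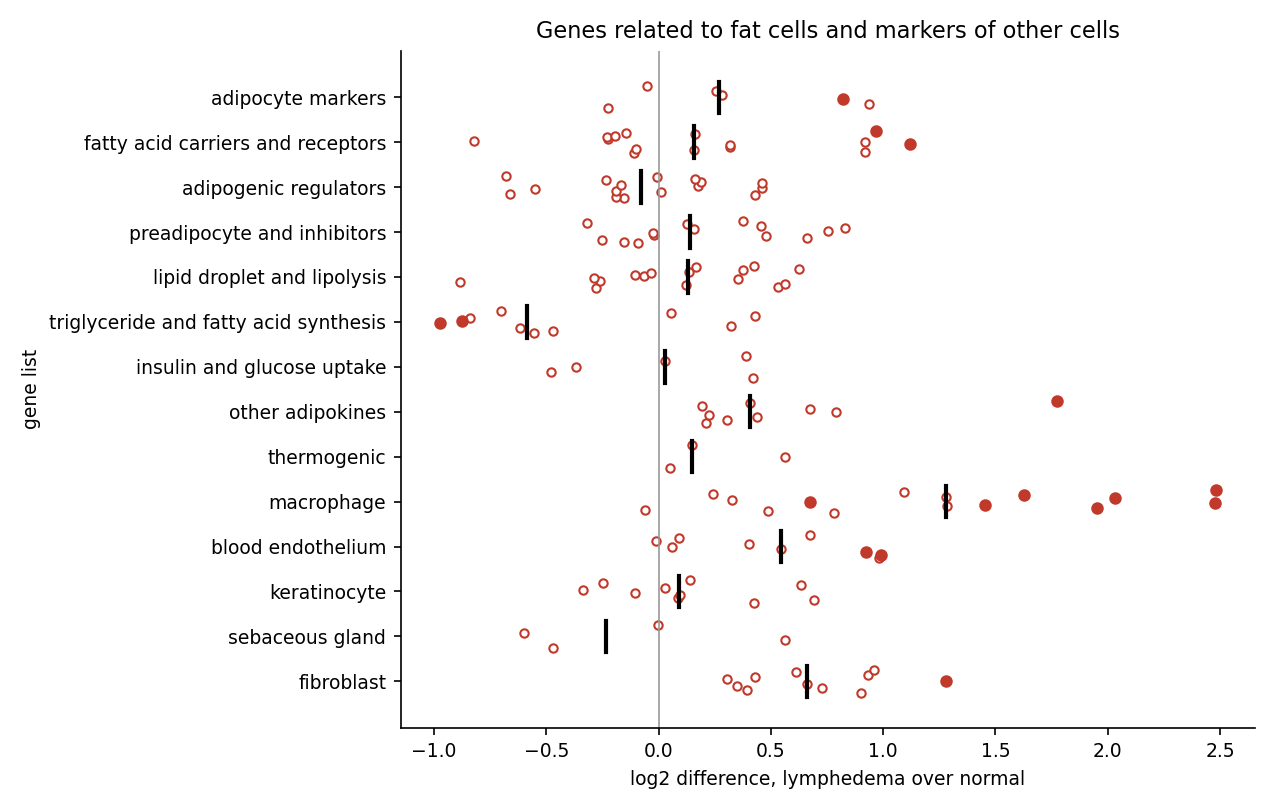
Log2 difference of lymphedema over normal for every measured gene of the lists drawn, 1 point a gene, with filled points for genes past the limma threshold and a bar at each list's median. The wound-activated keratinocyte and skeletal muscle lists are not drawn. The macrophage list has the highest median at 1.28 and the synthesis list the lowest at −0.59, while the adipocyte markers have 1 filled point, Fabp5.

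Markers of other cells that use these genes were read in the same way. Of 22 macrophage markers 15 were measured and 7 rose in lymphedema over normal (median 1.28), with Ms4a6b and Fcer1g at 2.48, C1qa at 2.03 and Lyz2 at 1.95. The mean level of the macrophage list was 0.52, 0.59 and 0.66 in lymphedema, −0.29, −0.72 and 0.58 in sham and −0.60, −0.67 and −0.58 in normal skin. The 3 lymphedema arrays and sham array 3 were high. On sham array 3, Fabp4, Lpl, Cd36 and Adipoq were each at their sham minimum, and Fabp5 (1.17) and Pparg (0.19) were not. That array stood apart from the other sham arrays across all genes (r of 0.826 and 0.874). The share of all genes at their sham minimum on it was not counted, and no source of the members' values was tested. Of 15 markers of blood endothelium 9 were measured and 2 rose (median 0.55), Kdr at 0.99 (limma adjusted p = 0.0445) and Eng at 0.92 (adjusted p = 0.0399), and the list's mean lay at 0.07 to 0.19 in lymphedema, −0.49 to 0.06 in sham and −0.47 to −0.31 in normal skin. Of 18 alternatives with limma, Kdr passed in 5, Eng in 7, Ms4a6b in 11, and Fcer1g, C1qa and Lyz2 in 13.

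Keratinocytes also express Fabp5. Of 18 keratinocyte markers 10 were measured and 0 passed (median 0.09), with Krt14 at 0.69 and Sfn at 0.63 (limma adjusted p = 0.222 and 0.134). SAM called both, as it did 21.2% of all genes. The list's mean lay at 1.78 to 2.08 in lymphedema, 1.91 to 1.95 in sham and 1.63 to 1.95 in normal skin. Of 11 markers of wound-activated keratinocytes 6 were measured and 3 rose (median 0.83). These were S100a9 at 4.61, S100a8 at 2.83 and Serpinb3a at 1.09, of which the first pair are also products of neutrophils. They passed in 14, 17 and 10 of the 18 alternatives in that order. That list's mean, which includes S100a9 and S100a8, lay at 1.94 to 2.21 in lymphedema, 0.78 to 1.62 in sham and 0.44 to 0.45 in normal skin. Which cells gave its rise was not tested. For Pparg, 4 of 13 sebaceous gland markers were measured and 0 passed (median −0.24), with Far2 at −0.60 and Cidea at 0.56. Fibroblast markers, 11 of 13 measured, had a median of 0.66, and 1 rose, Fbln1 at 1.28, which passed in 11 of the 18. Skeletal muscle markers, 9 of 18 measured, had a mean of −4.63 to −3.85 in lymphedema, −4.27 to −2.62 in sham and −4.66 to −4.29 in normal skin, with sham array 3 highest. For lymphedema over normal 0 of them passed, with Tnni2 at −0.81 and Myl1 at 0.59. The part of these cells in the values of the adipocyte markers was not tested.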

How the data were processed

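Expression was measured in 9 pools of tail skin on cDNA arrays. The authors extracted features with GenePix and, per the methods, applied background subtraction and dye normalization in Expressionist. The deposited values are log ratios of the channels, read here as log2 and turned in sign. Their log base, centering and direction are not stated, and the deposited columns had medians of −0.027, −0.002 and −0.068 for lymphedema, −0.093, −0.06 and −0.066 for sham and −0.053, −0.107 and −0.121 for normal arrays. Of 42624 features, 101 had no value, 26 values were written as null, and 1.34% to 12.6% of values were missing on an array. In the annotation, 20678 features carry 1 gene symbol, 953 carry several and 20993 are unnamed here. Intensities were not used here, so no filter on dim signal could be applied. The study's own filter and imputation are not in the table.

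Arrays were grouped by their labels and centered on their median. The 30702 features with values on all 9 arrays (15723 named) were kept, features of a gene were averaged per array, and limma 3.58.1 in R 4.3.3 (lmFit and eBayes, group as the only term, all 9 arrays) was fitted to 8644 genes and, separately, to the features. Benjamini-Hochberg adjustment ran over all genes or all features, with a threshold of 0.05. The code, including SAM (false discovery rate 5%, all permutations of the states compared), was tested on simulated data. Python 3.11.15 with matplotlib 3.10.9 drew the figures. The members and lists were chosen with earlier results of these data known. By rule, the text names every member, at most 4 genes past the threshold in each other list or, with none, 2 with the largest difference, and for Adipoq, Lpl, Fabp4 and Fabp5 the 3 genes of most similar pattern. Irf7 and Cd160, the 2 genes that passed for lymphedema over sham, lie outside that rule and were named after their values were seen. The feature used for 1 clone per gene was that of lowest number. As alternatives, arrays were left uncentered, scaled to a common median absolute deviation, or normalized by quantiles, and other fits used features with 2 of 3 values a state, 1 clone per gene, leaving out genes with a mean ratio under −4, the replicate number as a block, the missing-value set as a block, arrays of the states compared only, SAM, and each array left out in turn.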

Additional observations from a re-analysis of the deposited data

How the results depend on the processing

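Counts of genes past the threshold moved with the processing. For lymphedema over normal, 297 genes passed, against 184 after quantile normalization (112 higher and 72 lower, against 245 and 52), 189 with 1 clone per gene, 145 with the replicate number as a block, 0 with the missing-value set as a block (979 at an unadjusted p under 0.05), 842 with arrays of these states only and 1833 in SAM, and 11 to 623 with 1 array left out (24, 11 and 73 without lymphedema array 1, 2 or 3, 14, 13 and 68 without the normal arrays in that order, and 623 when sham array 3 was dropped). Calls were higher in 82.5%, in 73.3% without centering and in 60.9% after quantile normalization, which moved the median of all genes to −0.02. Among members, 1 passed, and 0 did without centering, after quantile normalization or with either block, 2 (Fabp4 and Fabp5) with arrays of these states only, 3 (Fabp4, Fabp5 and Lpl) in SAM, where 21.2% of genes passed, and 0 to 2 with 1 array left out. With the replicate block Fabp5 had an adjusted p of 0.0605. For sham over normal SAM called 20 genes, and 0 to 12 passed in limma with 1 array left out, the 12 without sham array 3. For lymphedema over sham 2 genes passed, Irf7 (1.61) and Cd160 (−2.04), against 9 after scaling, 1 without centering, after quantile normalization, with 2 of 3 values or with either block, 0 in SAM or with arrays of these states only, and 0 to 96 with 1 array left out, the 96 without sham array 3. In these comparisons 0 members passed under every alternative run. Same-numbered pools deviated from their state's mean with correlations of −0.244 to 0.279, so the numbers were not taken as pairs.

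Signs turned only for differences that had not passed. With 1 clone per gene, lymphedema over normal was −0.75 for Lpl, −0.07 for Pparg and 0.06 for Far2, a sebaceous gland gene; sham over normal was −0.38 for Lpl, −0.08 for Pparg and −0.16 for Cd36; and lymphedema over sham was −0.38 for Lpl. With 1 array left out, lymphedema over normal ran from −0.13 to 0.03 for Cd36 and −0.11 to 0.56 for Cox8b, and sham over normal ran from −0.10 to 0.26 for Adipoq and −0.10 to 0.16 for Pparg. Quantile normalization gave −0.03 for Adipoq in sham over normal and −0.26 for Cox8b in lymphedema over normal, scaling gave −0.07 for Cox8b and −0.06 for Myl1, a muscle gene, and the missing-value set as a block gave −0.19 for Pparg in sham over normal. The causes were not tested. With 3 pools a state and no intensities, dim features could not be told from bright ones.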
